A study of Mus musculus with 10 samples.

Results

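Thyroid hormone action within a tissue depends on genes that carry the hormone into cells, activate or inactivate it there and read it in the nucleus. The 6 genes described here cover these roles in the mouse uterus: the deiodinases *Dio2* and *Dio3*, the nuclear receptors *Thra* and *Thrb*, the transporter *Slc16a10* and *Trh*, which encodes the precursor of thyrotropin-releasing hormone. They are 6 of the 45706 genes in the count table, and all 6 were among the 25146 genes with enough counts to be tested. The 6 genes were picked by name with the genotype difference in these uteri already known. Their genotype differences are therefore given as a description without a test, and tests are read only for other genes of thyroid hormone biology.

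RNA was taken from whole uteri on gestation day (GD) 3.5, shortly before embryos attach, from 2 groups of 5 mice. The control mice were *Arid1a* f/f and the others, called mutant here, were *Ltf* iCre/+ *Arid1a* f/f. Both genotypes carry 2 floxed alleles of *Arid1a*, a subunit of the SWI/SNF chromatin remodeling complex, and only the mutant carries a Cre recombinase in the *Ltf* (lactoferrin) locus, which acts in the adult endometrial epithelium. According to the authors, this Cre is also reported in neutrophils and other myeloid cells, where they could not exclude deletion of *Arid1a*. The mice were adult females of 12 to 15 weeks on a mixed strain background. The question of the comparison is how loss of *Arid1a* from the epithelium alters gene expression in the uterus at this stage.

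Libraries held between 59296537 and 72702411 counts, so a gene with 3 counts stood between 0.0418 and 0.0507 CPM, the count scaled to library size that is used as the unit throughout. *Arid1a* itself had a mean of 213 ± 22.9 CPM in controls and 185 ± 15.9 CPM in mutant uteri (SD, n = 5 each), with 4 of 5 below every control, and the difference did not pass the edgeR quasi-likelihood test over all genes (log2 fold change -0.20, adjusted p = 0.201). The RNA was of the whole organ, while the Cre was used for its action in the epithelium. *Ltf*, in whose locus the Cre sits, rose (log2 fold change 7.23, adjusted p = 0.0092). The first principal component of log2 CPM held 51.1% of the variance of the 500 most variable genes. It placed mutant uteri 1 and 5, at 56.4 and 70.7, apart from the other 3, at 15.1 to 25.8, and the controls, at -46.3 to -12.9, so member values without these uteri are given beside the full ones. Markers of epithelium, stroma and muscle were all present in every uterus, as the label requires. In mutant uteri the 8 epithelial markers summed to between 1005 and 2388 CPM against 676 to 887 CPM in controls, and the 6 endothelial markers to between 322 and 486 CPM against 698 to 977 CPM. All 8 epithelial markers had fold changes above 0, and 6 passed the edgeR test at an adjusted p under 0.05. All 6 endothelial markers were below 0, and 6 passed, beside 9.70% of all tested genes passing in either direction. Of the 8 stromal markers 7 were below 0 and 2 passed. All 6 markers of muscle were below 0 and 0 passed. The part of these shifts in the differences below was not tested.

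As background, the thyroid gland releases mostly thyroxine, which binds the nuclear receptors weakly. Type II deiodinase, the product of *Dio2*, removes an iodine from the outer ring and makes triiodothyronine, the active hormone, whereas type III deiodinase, the product of *Dio3*, removes one from the inner ring and inactivates both. The receptors encoded by *Thra* and *Thrb* sit on DNA with a retinoid X receptor and exchange corepressors for coactivators when the hormone binds. *Slc16a10* moves aromatic amino acids and thyroid hormones across the cell membrane. Deiodinases are studied in the uterus because they set hormone levels around the implanting embryo, and *Dio2* is also used as a marker of decidual stromal cells that turn senescent.

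Both deiodinases are selenoproteins, and the active site is similar between them. Selenocysteine is encoded there by a TGA codon, which is otherwise a stop signal. The coding sequence around it is shown to let the 3 enzymes be compared, *Dio1* (type I) included, with the TGA codon in capitals and 30 bases on each side, from GENCODE transcripts of GRCm38.
Dio2: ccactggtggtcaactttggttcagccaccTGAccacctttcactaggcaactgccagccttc
Dio3: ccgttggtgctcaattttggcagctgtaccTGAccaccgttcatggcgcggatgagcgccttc
Dio1: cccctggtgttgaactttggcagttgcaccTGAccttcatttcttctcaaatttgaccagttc
The stretch of *Dio2* lies at chr12:90729793-90729855 on the minus strand, that of *Dio3* at chr12:110279709-110279771 on the plus strand and that of *Dio1* at chr4:107297670-107297732 on the minus strand, each within 1 coding exon. *Dio2* and *Dio3* share 41 of the 63 bases (65.1%), more than *Dio1* shares with *Dio2* (57.1%) or with *Dio3* (58.7%). *Dio2* has 2 annotated selenocysteine codons, of which the one in the active site is shown.

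The promoter of *Dio2* is shown because it holds the cyclic AMP response element through which the gene is known to respond to cyclic AMP. Of the 6 genes, 5 had an entry among RefSeq promoter windows of GRCm38.p6, which run from 250 bases before to 50 bases after a start site. The 250 bases before the *Dio2* start site, at chr12:90739039-90739288 on the minus strand, read as follows, with the response element TGACGTCA and the TATA box TATAAA in capitals.
Dio2 promoter: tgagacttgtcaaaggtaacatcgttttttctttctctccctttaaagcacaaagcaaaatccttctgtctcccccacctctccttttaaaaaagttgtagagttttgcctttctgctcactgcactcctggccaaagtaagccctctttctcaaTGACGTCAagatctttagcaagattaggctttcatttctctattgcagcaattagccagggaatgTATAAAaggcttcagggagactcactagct
The element began 95 bases before the start site (position -95) and the TATA box at -30. TGACGTCA, which reads the same on both strands, was found in 1.79% of 32851 promoter windows, and TATAAA on either strand in 13.6%. Among the other members, *Dio3* had TATAAA at -31. *Trh* and *Thrb* each held TGACG, the first letters of the full element, found in 20.8% of windows, and AGGTCA, a single arm of a nuclear receptor site, found in 16.3%. This start site lies upstream of the gene model for *Dio2* in the annotation used here, from which the printed stretch is 601 bases away, and within the antisense transcript *Gm26512*.

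*Dio2* (ENSMUSG00000007682, chr12:90724552-90738438, minus strand), which activates the hormone, was the most abundant member per exon length, and its level differed widely among mutant uteri. In controls 1 to 5 it stood at 359, 162, 216, 195 and 181 CPM. In mutant uteri 1 to 5 it stood at 659, 550, 282, 277 and 1183 CPM. The genotypes overlapped, since uteri 3 and 4 lay below control 1, while uteri 1, 2 and 5 lay above every control. The mean was 223 ± 78.6 CPM against 590 ± 371 CPM (SD, n = 5 each), a ratio of 2.65 and a fitted log2 fold change of 1.40 (SE 0.39). Without uteri 1 and 5 the mean of the remaining 3 was 369 ± 156 CPM and the log2 fold change 0.73 (SE 0.28). These are counts from the whole organ, in which more cells of a type and more RNA per cell cannot be told apart.

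*Dio3* (ENSMUSG00000075707, chr12:110279068-110281097, plus strand), which inactivates the hormone, was close to the limit of useful depth, with 27 to 59 counts per control library and 23 to 125 per mutant library. Controls 1 to 5 held 0.755, 0.767, 0.423, 0.810 and 0.847 CPM, and mutant uteri 1 to 5 held 1.96, 1.183, 0.491, 1.31 and 0.333 CPM. Uteri 1, 2 and 4 lay above every control and uterus 5, which had the most *Dio2*, lay below every control. The means were 0.720 ± 0.170 and 1.05 ± 0.660 CPM (SD, n = 5 each). The log2 fold change was 0.55 (SE 0.44), so that the difference was close in size to its standard error. Without uteri 1 and 5 the log2 fold change was 0.46 (SE 0.35). The antisense gene *Dio3os*, named beforehand for this locus, was not found in the count table, so it was not analysed here.

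Per exon length, *Dio2* exceeded *Dio3* in all 10 uteri. The ratio of their CPM per kilobase was 164, 73.3, 175, 83.2 and 74.1 in controls 1 to 5 and 117, 161, 197, 73.4 and 1214 in mutant uteri 1 to 5. Mutant uterus 5 therefore stood far above the rest, and the other 4 spanned about the range of the controls. *Dio2* and *Dio3* did not move together over the 10 uteri (Pearson r = -0.24 on log2 CPM centred within each genotype, given as a description). The uteri share their genotype groups and the same libraries serve both genes.

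**Figure D1:**
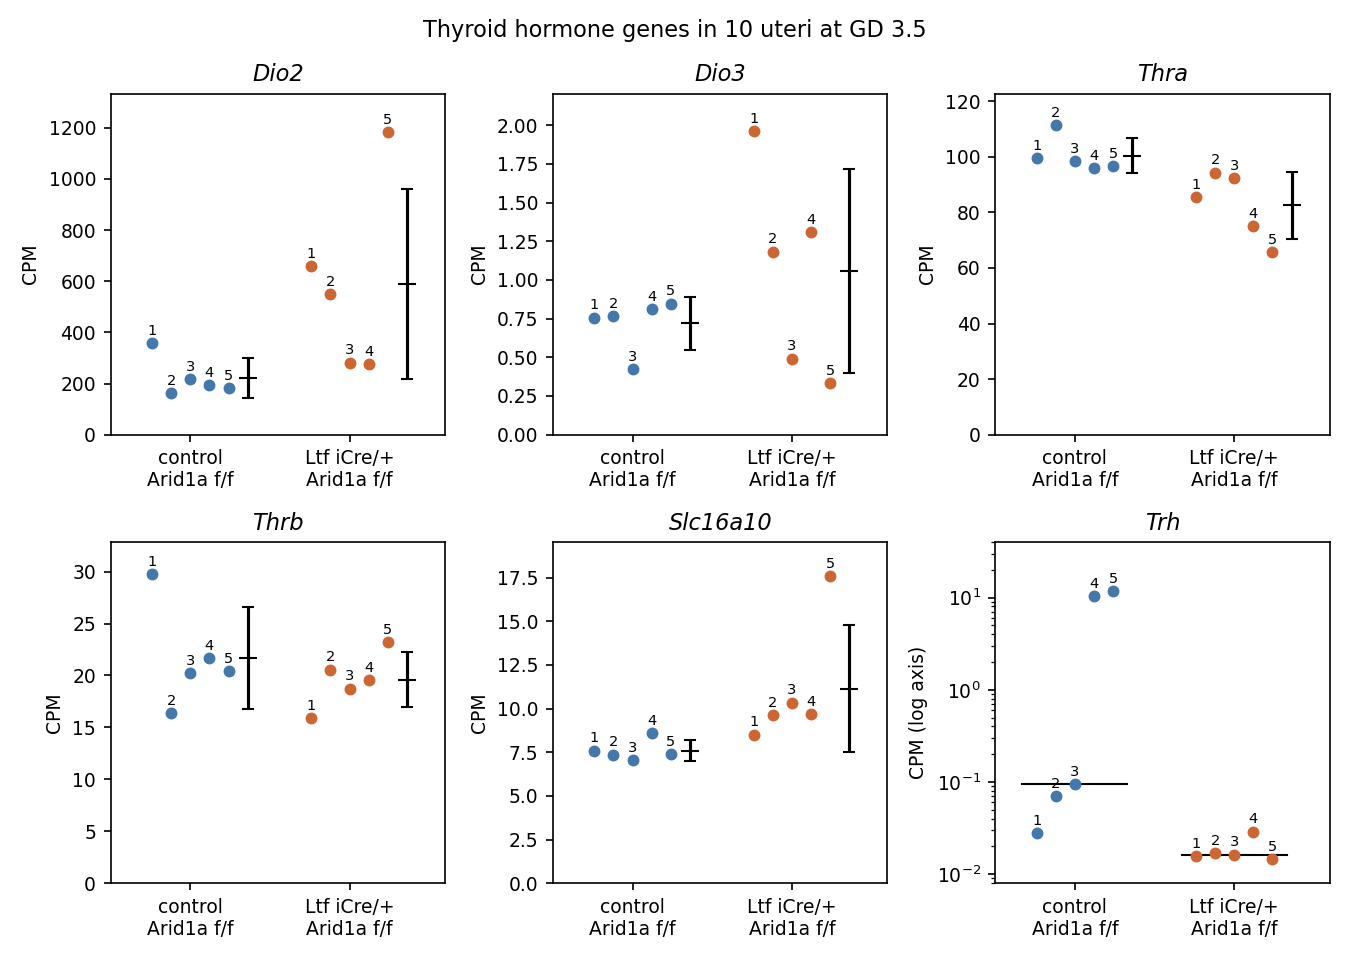
Level of each of the 6 genes in every uterus, in CPM, with control *Arid1a* f/f uteri in blue and mutant (*Ltf* iCre/+ *Arid1a* f/f) uteri in orange, numbered by replicate. Black bars give the mean and SD of 5 uteri, except for *Trh*, drawn on a log axis with lines at the medians; for *Thra* the 5 orange points lie below all blue points, and for *Trh* only controls 4 and 5 exceed 10 CPM.

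*Thra* (ENSMUSG00000058756, chr11:98740638-98769006, plus strand), the receptor of most tissues outside the liver and pituitary, was the only member whose genotypes did not overlap. Controls 1 to 5 held 99.6, 111, 98.4, 95.9 and 96.7 CPM, and mutant uteri 1 to 5 held 85.5, 94.3, 92.3, 75.0 and 65.7 CPM. All 5 mutant uteri were below the lowest control, by little in uteri 2 and 3 and by most in uterus 5. The means were 100.4 ± 6.33 and 82.5 ± 12.1 CPM (SD, n = 5 each), a ratio of 0.822 and a log2 fold change of -0.28 (SE 0.10), or -0.20 (SE 0.09) without uteri 1 and 5. The genotypes were also separate when CPM were scaled to total counts, at 66.8 to 95.2 against 96.1 to 110.0. Across all tested genes 10.7% had genotypes that did not overlap (5.53% with mutant uteri higher and 5.16% with them lower), and nothing is read from 1 of 6 members chosen with these values known.

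The 3′ end of *Thra* shares 1075 bases of gene span with *Nr1d1*, a circadian nuclear receptor on the opposite strand, and whether counting used the strand is not given in the sources used here, so reads there cannot be assigned with certainty. *Nr1d1* held 13.1 to 45.2 CPM in controls and 13.99 to 29.9 CPM in mutant uteri (log2 fold change -0.13, SE 0.32, edgeR adjusted p = 0.844), and its direction turned without control 1, at 0.24. Its centred correlation with *Thra* was 0.29 over the 10 uteri and 0.03 without mutant uteri 1 and 5. Counts per gene also do not separate the hormone-binding form of *Thra* from the splice form that does not bind hormone. The mutant uteri with the least *Thra*, 5, 4 and 1, were those with the most *Ltf*, at 2831, 290 and 383 CPM. *Ltf* makes up most of the summed gland markers there (2831 of 2850 CPM in uterus 5), with which *Thra* had a centred r of -0.87, and the other 5 gland markers all had fitted fold changes below 0. *Thra* had a centred r of 0.77 with the summed endothelial markers. Values of similar size were found with summed markers of adipocytes (0.80), nerve and neuroendocrine cells (0.76), myometrium (0.72), macrophages (-0.74) and neutrophils (-0.70). The macrophage value was -0.29 without mutant uteri 1 and 5. The part of these cells was not tested.

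*Thrb* (ENSMUSG00000021779, chr14:17660261-18038090, plus strand), the receptor best known from liver, pituitary and inner ear, lay in one range in both genotypes. It stood at 29.7, 16.4, 20.2, 21.7 and 20.4 CPM in controls 1 to 5 and at 15.9, 20.6, 18.7, 19.5 and 23.2 CPM in mutant uteri 1 to 5. Control 1 was the highest of all 10 and mutant uterus 1 the lowest. The means were 21.7 ± 4.92 and 19.6 ± 2.65 CPM (SD, n = 5 each), which gave a log2 fold change of -0.15 (SE 0.16). It was -0.01 without control 1, and -0.14 (SE 0.16) without mutant uteri 1 and 5. Per exon length, *Thra* exceeded *Thrb* in every uterus, by 5.37 to 10.9 times in controls and by 4.54 to 8.62 times in mutant uteri. The lowest of these ratios was that of mutant uterus 5.

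*Slc16a10* (ENSMUSG00000019838, chr10:40033532-40142258, minus strand) was tightly spaced in controls, at 7.58, 7.36, 7.03, 8.59 and 7.38 CPM. Mutant uteri 1 to 5 held 8.50, 9.63, 10.3, 9.69 and 17.6 CPM. Of these, 4 lay above every control and uterus 1 lay just below control 4. The means were 7.59 ± 0.594 and 11.1 ± 3.65 CPM (SD, n = 5 each), a ratio of 1.47 and a log2 fold change of 0.55 (SE 0.19). Without uteri 1 and 5 the remaining 3 had a mean of 9.88 ± 0.389 CPM, all above every control, and the log2 fold change was 0.38 (SE 0.13).

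Mutant uterus 5, with the most *Slc16a10*, also had the most RNA of myeloid markers. The 6 macrophage markers summed to 507 CPM there, against 184 to 238 CPM in the other mutant uteri and 135 to 238 CPM in controls, and none of the 6 was called by edgeR between genotypes (1 at an unadjusted p under 0.05, and 1 called by DESeq2). The 6 neutrophil markers summed to 782 CPM in uterus 5 and to at most 15.02 CPM in every other uterus. Over the 10 uteri *Slc16a10* had a centred r of 0.77 with the macrophage sum, and of -0.11 without uteri 1 and 5. The 3 genes closest to *Slc16a10* by centred correlation among 14591 genes with a mean of at least 100 counts were *Pilra* (r = 0.97), *Cd101* (r = 0.96) and *Cd33* (r = 0.95), all known from myeloid cells. Mutant uterus 5 dominates these correlations. It held 11.7, 8.54 and 25.2 CPM of the 3 genes, against at most 2.42, 1.36 and 4.12 CPM in any other uterus. The part of these cells in the level of *Slc16a10* was not tested.

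*Trh* (ENSMUSG00000005892, chr6:92242061-92244650, minus strand), best known from the hypothalamus, was present at more than a trace in 2 of the 10 uteri. Controls 1 to 5 had 2, 5, 6, 734 and 820 counts, or 0.0280, 0.0697, 0.0940, 10.4 and 11.8 CPM. Mutant uteri 1 to 5 had 1, 1, 1, 2 and 1 counts, which is at or under the floor of 3 counts per library. Controls 4 and 5 stood more than 100 times above the other 3 controls, so the mean of the controls, 4.48 ± 6.06 CPM (SD, n = 5), describes none of them. Against the floor, the mutant mean was at least 88.3-fold lower than this control mean, a bound that rests on controls 4 and 5. The other 3 controls held at most 6 counts, and the genotypes overlapped there, since mutant uterus 4 lay above control 1. Mutant uteri 2, 3 and 4 alone had a mean of 0.0208 ± 0.00718 CPM (SD, n = 3), still under the floor.

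The genes closest to *Trh* were picked by their correlation with it, which controls 4 and 5 dominate. *Hebp1*, a heme-binding protein gene also on chromosome 6, held 21.9 and 23.9 CPM in controls 4 and 5, 10.4 to 12.5 CPM in controls 1 to 3 and 11.2 to 14.2 CPM in mutant uteri (centred r = 0.96). *Rps3a1*, a ribosomal protein gene, held 689 and 837 CPM in controls 4 and 5, 207 to 399 CPM in the other 3 controls and 211 to 298 CPM in mutant uteri (r = 0.94). *Slc25a14*, a mitochondrial carrier gene, had the highest correlation (r = 0.97), with 9.83 and 10.3 CPM in controls 4 and 5 and 7.08 to 8.03 CPM in the other 3, but its 9.09 to 9.79 CPM in mutant uteri were close to the former. The 6 neuroendocrine markers summed to 5.70 and 5.63 CPM in controls 4 and 5 and to 4.71 to 5.95 CPM in the other 3 controls. The 6 endothelial markers summed to 773 and 698 CPM in controls 4 and 5 and to 876 to 977 CPM in the other 3. The part of any cell type in the level of *Trh* was not tested.

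Ordered by CPM per kilobase of exon, the control medians ran from *Dio2* (33.5) and *Thra* (21.3) through *Thrb* (2.76), *Slc16a10* (1.00) and *Dio3* (0.378) to *Trh* (0.0679). Of neighbours in this order, only *Dio3* and *Trh* had ranges that overlapped between uteri. By mean level per length, *Dio2* stood above 95.5% and *Thra* above 90.4% of the 24970 genes compared in controls, whereas *Trh*, through controls 4 and 5, stood above 57.8%, *Thrb* above 56.4%, *Slc16a10* above 44.8% and *Dio3* above 34.2%. In mutant uteri the order of the medians was the same, at 94.5, 18.5, 2.64, 1.32, 0.583 and 0.0118, and only *Thrb* and *Slc16a10* were neighbours whose ranges overlapped. In controls 4 and 5, however, *Trh* was above *Thrb*, reaching 8.51 in control 5.

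**Figure D2:**
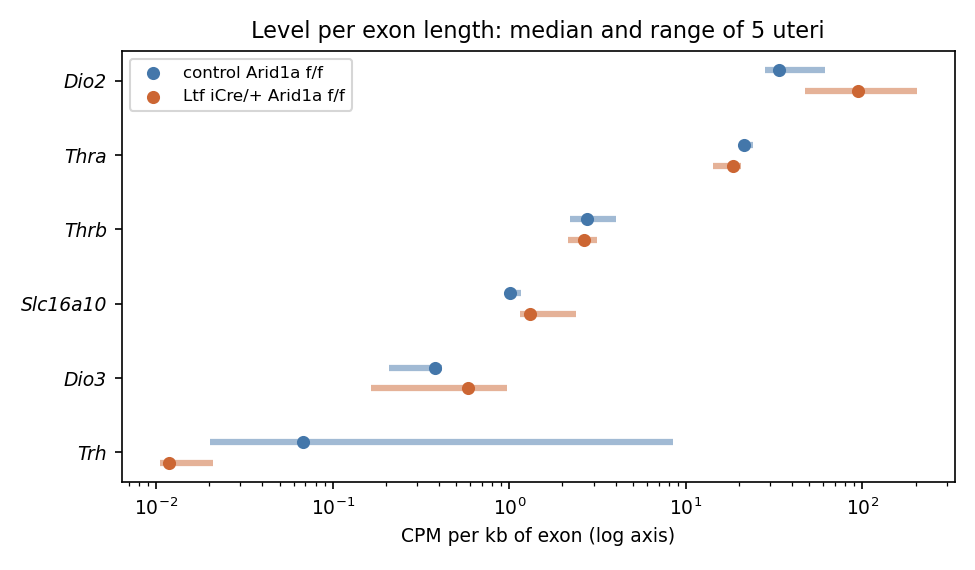
Level of the 6 genes in CPM per kilobase of exon, on a log axis, with the median (points) and range (bars) of 5 control uteri in blue and 5 mutant (*Ltf* iCre/+ *Arid1a* f/f) uteri in orange. *Dio2* and *Thra* are highest in both genotypes, and the long blue bar of *Trh* is due to controls 4 and 5.

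*Scara5*, a ferritin receptor gene, is paired with *Dio2* as a marker of diverging decidual cells, and it ran opposite to *Dio2*. Controls 1 to 5 held 141, 171, 148, 144 and 192 CPM and mutant uteri 1 to 5 held 27.4, 67.8, 122, 100.2 and 20.4 CPM, all below every control. The difference did not pass the edgeR test over all genes (log2 fold change -1.24, SE 0.42, adjusted p = 0.0839), whereas it did so in DESeq2 (adjusted p = 0.0167) and, by edgeR, without mutant uterus 3 (adjusted p = 0.0393) and without mutant uteri 1 and 5 (log2 fold change -0.72, adjusted p = 0.0270). In mutant uteri 1, 2 and 5, which had the most *Dio2*, *Scara5* was lowest. Over the 10 uteri the centred correlation of the pair was -0.88, and -0.79 without uteri 1 and 5. By the same measure the genes closest to *Dio2* were *Rgs3* (r = 0.98), *Prkaa2* (r = 0.96) and *Tgfb3* (r = 0.96), those closest to *Thra* were *Slc1a4* (r = 0.96), *Nudt16l1* (r = 0.95) and *Dnajb2* (r = 0.94), and those closest to *Thrb* were *Mical3* (r = 0.93), *Ppp1r9a* (r = 0.93) and *Vegfa* (r = 0.91).

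**Figure D3:**
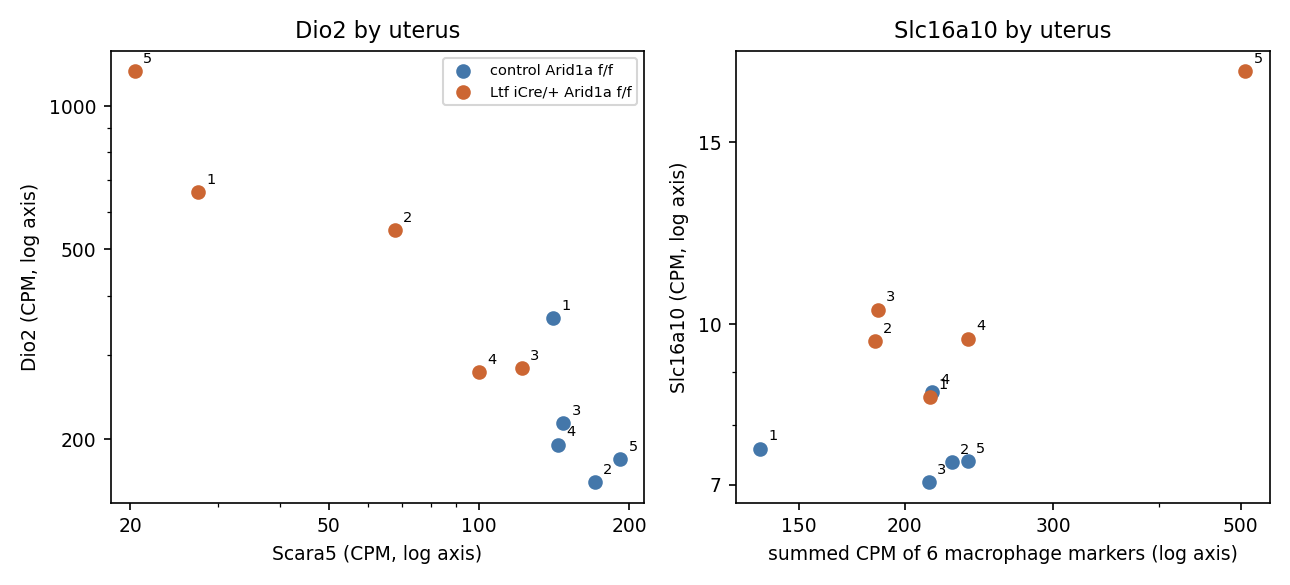
Left, *Dio2* against *Scara5*; right, *Slc16a10* against the summed level of 6 macrophage markers, all in CPM on log axes, 1 point per uterus numbered by replicate (blue, control; orange, mutant, *Ltf* iCre/+ *Arid1a* f/f). *Dio2* is highest where *Scara5* is lowest, and mutant uterus 5 stands alone with the most *Slc16a10* and the highest macrophage sum.

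Among the other genes of thyroid hormone biology, 86 of 87 listed genes were in the table and 78 had enough counts to be tested, and few passed. Of these, 4 rose and 5 fell at an adjusted p under 0.05 in the edgeR test over all genes, which is 11.5% of the 78, beside 9.70% of all tested genes (5.19% higher and 4.51% lower). The median log2 fold change of the 78 genes was -0.09, beside 0.03 over all genes. The count of 9 was 3 without control 2, without control 3 and without controls 4 and 5 together, 4 without mutant uterus 4, and 5 without either control 5 or mutant uterus 1. It was 15 without mutant uteri 1 and 5 together and 18 in DESeq2, in which 19.0% of all genes with an adjusted p were called. Over all genes, 2438 were called in the main fit and 2358 without mutant uteri 1 and 5. The calls over all genes fell to 1204 without control 2, 1248 without control 3 and 701 without controls 4 and 5. *Mbp* and *Pck1* were called in all 17 alternatives tried, and *Ucp3* in 16.

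Of transporters, 1 of 9 tested genes changed in edgeR and 2 in DESeq2. *Slco2b1*, an organic anion transporter, fell from 32.8 ± 4.58 to 18.4 ± 6.96 CPM (SD, n = 5 each; log2 fold change -0.83, SE 0.21, edgeR adjusted p = 0.0316). Mutant uterus 5, at 30.6 CPM, stayed within the control range of 24.7 to 35.8 CPM, and the other 4 held 13.9 to 17.5 CPM. The call was kept on leaving out 1 uterus only for control 4 and for mutant uterus 5. *Slc7a5*, a large neutral amino acid transporter, had a log2 fold change of 0.40 (SE 0.16, adjusted p = 0.150).

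Of genes for hormone binding, conjugation and deiodinase turnover, 1 of 11 changed in edgeR and 5 in DESeq2. *Marchf6*, a ubiquitin ligase that marks type II deiodinase for degradation, fell from 163 ± 12.2 to 131 ± 12.6 CPM without overlap (log2 fold change -0.32, SE 0.09, edgeR adjusted p = 0.0409). Its call was kept without control 5 and without mutant uterus 1 or 2, and lost without any other uterus (adjusted p up to 0.0794). In this list 3 of 11 genes had no overlap, all lower in mutant uteri, beside 10.7% of all tested genes. The others were *Ttr*, at 2.92 ± 1.40 and 0.454 ± 0.436 CPM, and *Sult1a1*, at 39.1 ± 10.2 and 12.4 ± 9.26 CPM. Neither passed in edgeR (adjusted p = 0.0600 and 0.0921) and both did in DESeq2 (adjusted p = 0.0229 and 0.0487). *Dio1*, the third deiodinase, stood at 0.308, 0.223, 0.125, 1.05 and 0.273 CPM in controls 1 to 5. It stood at 2.87, 0.253, 1.09, 2.56 and 3.24 CPM in mutant uteri, where 4 of 5 lay above every control. The log2 fold change of *Dio1* was 2.33 (SE 0.69) with an edgeR adjusted p of 0.0553, and the test was passed in DESeq2 (adjusted p = 0.00335) and without control 4 (0.0261) or mutant uterus 2 (0.0202). *Crym*, a cytosolic hormone-binding protein, was low in both genotypes (0.346 ± 0.0995 and 0.403 ± 0.209 CPM), and its direction turned without mutant uterus 2.

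Of receptor partners and coregulators, 1 of 17 changed, although 13 of the 17 had a fold change below 0. *Kat2b*, a histone acetyltransferase and coactivator, fell from 84.2 ± 3.36 to 70.3 ± 5.93 CPM (log2 fold change -0.26, SE 0.07, edgeR adjusted p = 0.0498). This call was at the threshold and was lost on leaving out any 1 uterus other than mutant uterus 5. *Rxra*, the partner receptor, stood at 84.1 ± 7.86 and 82.5 ± 9.55 CPM, a log2 fold change of -0.03 (SE 0.10, adjusted p = 0.897) that turned to 0.01 without control 1 and 0.03 without mutant uterus 3. *Ncor1*, the corepressor bound by receptors without hormone, stood at 304 ± 24.6 and 286 ± 27.9 CPM (log2 fold change -0.09, SE 0.09, adjusted p = 0.608).

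Of 14 tested genes that respond to triiodothyronine in other tissues, 2 rose and 2 fell in edgeR. These 4 are 28.6% of the list, beside 9.70% of all tested genes. In DESeq2 6 were called, where 19.0% of all genes were. On leaving out 1 uterus the edgeR count was 3 to 6. *Mbp*, the myelin basic protein gene, rose from 8.32 ± 1.19 to 19.8 ± 6.12 CPM without overlap (log2 fold change 1.25, SE 0.20, edgeR adjusted p = 0.0046). *Ucp3*, a mitochondrial carrier of muscle, had 0 counts in 4 controls and 4 counts in control 2, against 9 to 33 counts in mutant uteri, and rose (adjusted p = 0.0095), at levels of at most 0.479 CPM. *Pck1*, a gluconeogenic enzyme, fell from 6.47 ± 1.68 to 1.90 ± 0.849 CPM without overlap (log2 fold change -1.76, SE 0.32, adjusted p = 0.0081).

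*Klf9*, a direct target of thyroid hormone in brain that also acts with the progesterone receptor in the uterus, fell from 176 ± 23.7 to 125 ± 19.9 CPM without overlap (log2 fold change -0.49, SE 0.13, edgeR adjusted p = 0.0361). The call of *Klf9* was lost without mutant uteri 1 and 5 together (adjusted p = 0.0663) and in 6 of the 10 fits that left out 1 uterus: controls 1, 2, 3 and 4 and mutant uteri 1 and 3. *Hr*, another direct target, held 17.8 ± 2.21 and 18.5 ± 4.08 CPM (log2 fold change 0.06, SE 0.15, adjusted p = 0.854) and its direction turned without mutant uterus 1. The median log2 fold change of the 14 genes was -0.13. The genes called by edgeR were split evenly between the directions, and those called by DESeq2 were 2 higher and 4 lower.

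Around *Trh*, none of 8 tested genes for its processing, reception and breakdown was called by edgeR at an adjusted p under 0.05, with 1 at an unadjusted p under 0.05 and 0 called by DESeq2. *Trhr*, its receptor, held 0.167 to 1.04 CPM in controls and 0.0289 to 0.533 CPM in mutant uteri (log2 fold change -0.65, SE 0.65, adjusted p = 0.584), and controls 4 and 5 had the highest values of the controls. Without these controls the fold change turned to 0.30. *Trhde*, the enzyme that degrades the peptide, held 9.30 to 12.6 CPM in controls and 5.48 to 7.91 CPM in mutant uteri 1 to 4, but 15.2 CPM in uterus 5 (log2 fold change -0.38, SE 0.26, adjusted p = 0.396). Without uterus 5 the log2 fold change of *Trhde* was -0.72 and passed the test (adjusted p = 0.0165).

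None of 11 tested genes of thyrotropin and thyroid gland hormone synthesis was called by edgeR either, with 4 at an unadjusted p under 0.05 and 1 called by DESeq2. *Tshb* and *Cga*, the subunits of thyrotropin, and *Nkx2-1*, a thyroid transcription factor, had 0 counts in all 10 libraries, so no pituitary or thyroid tissue was seen at this depth.

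*Dio3* belongs to the imprinted *Dlk1*-*Dio3* domain, of which 6 genes were tested and 2 rose (33.3%, beside 9.70% of all tested genes called in either direction). Of the 6 genes, 3 had a fold change above 0 and 3 below 0. *Rian* and *Mirg*, noncoding RNAs expressed from the maternal chromosome, rose from 48.0 ± 9.35 to 77.2 ± 21.4 CPM (log2 fold change 0.69, SE 0.20, edgeR adjusted p = 0.0492) and from 1.75 ± 0.452 to 3.19 ± 0.778 CPM (log2 fold change 0.87, SE 0.25, adjusted p = 0.0495). Both calls were at the threshold and were lost on leaving out any 1 uterus other than control 1 and mutant uterus 5. *Meg3*, from the same chromosome copy, held 66.5 ± 25.3 and 97.0 ± 30.4 CPM (log2 fold change 0.54, SE 0.27, adjusted p = 0.227). In mutant uterus 5, *Dio3*, *Rian*, *Mirg* and *Meg3* all had their lowest value of that genotype. Over all 10 uteri the centred correlations of *Dio3* with *Rian*, *Mirg* and *Meg3* were 0.16, 0.43 and 0.11, and they were negative without uteri 1 and 5.

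**Figure D4:**
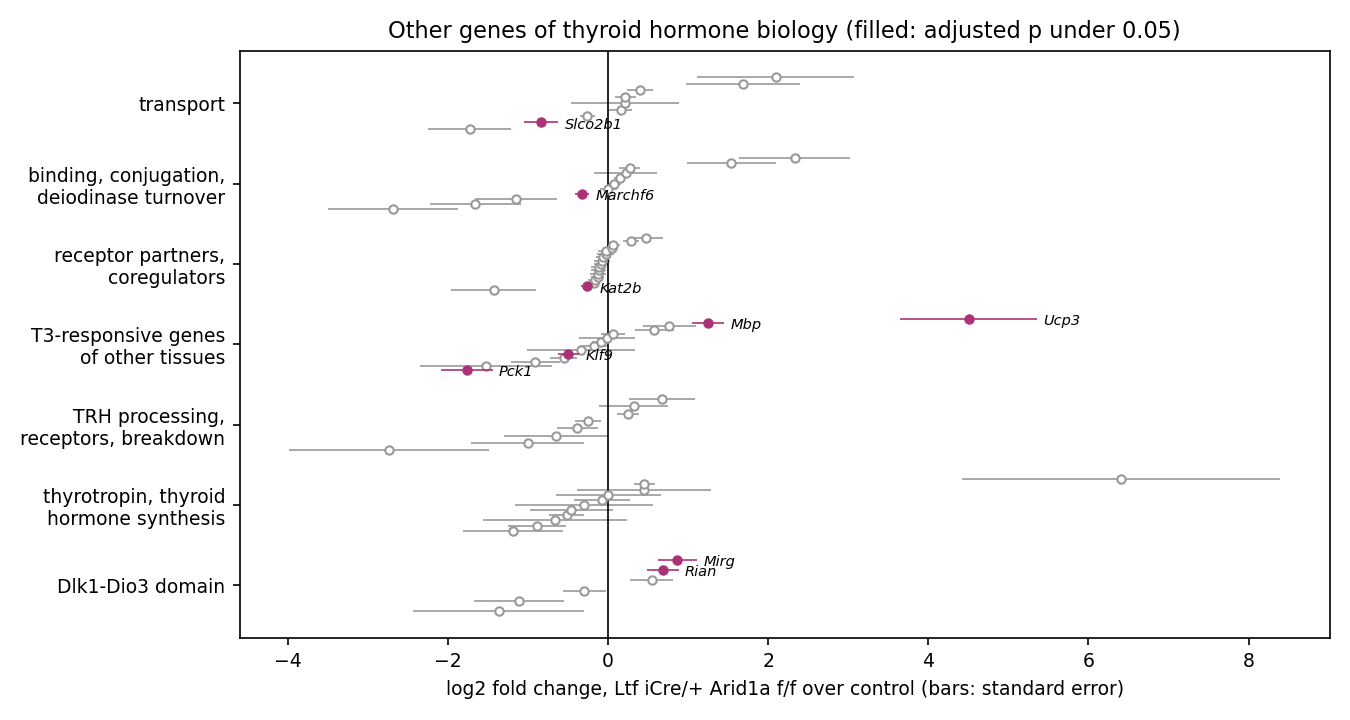
Fitted log2 fold changes (*Ltf* iCre/+ *Arid1a* f/f over control) with standard errors for the tested genes of 7 lists of thyroid hormone biology, 1 point per gene. Filled points with names are the 9 genes called by edgeR over all genes at 0.05, and most points of the receptor partner list lie close to 0.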

How the data were processed

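The authors made mRNA libraries of whole uteri, read them as 50 bp pairs, and had the reads trimmed (cutadapt 1.18, Trim Galore 0.6.4), aligned to GRCm38 with STAR 2.7.3a and counted per gene. The authors deposited raw counts of 45706 Ensembl genes in 10 libraries. The annotation release and strand setting are not given in the sources used here. Positions and exon lengths are from GENCODE M21, which held 45143 of the identifiers. Nothing in the labels ties uteri to litters or batches. No 2 libraries of a genotype agreed within sampling noise.

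Genes averaging at least 1 count were tested with edgeR 4.0.16 in R 4.3.3 (TMM, quasi-likelihood test, threshold 0.05 on adjusted p). Adjustment was by Benjamini-Hochberg over 25146 genes, and the prior count of the fit was left at the edgeR default. CPM use TMM library sizes. Log2 CPM for correlations, ratios of members and principal components use a prior count of 0.5. DESeq2 1.42.0, other scalings and filters, a replicate block and fits without single uteri or pairs of uteri were alternatives, and scripts were tested on simulated data. The members, lists and tests were chosen with earlier results of these data known. Named were the members, every called pathway gene with a mean of at least 10 counts, 14 companion genes, of which 1 is not reported here, and the 3 genes most correlated with each member; *Slc25a14*, *Hebp1* and *Rps3a1* follow from this rule, while *Tshb*, *Cga* and *Nkx2-1* were named after their values were seen. Floors cover counting error only. SEs of fold changes are from the quasi-likelihood fit and include variation between uteri, and SDs are between uteri of a genotype. Figures were drawn with matplotlib 3.10.9.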

Additional observations from a re-analysis of the deposited data

Results flagged for a closer look

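Among 52 groups of 5 uteri examined, 11 had 1 uterus far from the others by Dixon's test at the 95% level, which chance alone gives in about 1 of 20 groups. Each is given in CPM with the range of the other 4 uteri. Among control uteri, control 1 had 359 CPM of *Dio2* (others 162 to 216) and 21.6 CPM of *Hr* (16.3 to 17.5). Control 2 had 111 CPM of *Thra* (95.9 to 99.6) and 0.0558 CPM of *Ucp3* (others at 0). Control 3 had 0.423 CPM of *Dio3* (0.755 to 0.847). Control 4 had 24.7 CPM of *Slco2b1* (33.9 to 35.8) and 1.05 CPM of *Dio1* (0.125 to 0.308). In the other genotype, every case was *Ltf* iCre/+ *Arid1a* f/f uterus 5. This uterus had 17.6 CPM of *Slc16a10* (8.50 to 10.3), 30.6 CPM of *Slco2b1* (13.9 to 17.5), 15.2 CPM of *Trhde* (5.48 to 7.91) and 1.84 CPM of *Mirg* (3.29 to 3.78). *Dio2* in uterus 5, at 1183 CPM, did not meet this criterion, since the other 4 were themselves spread from 277 to 659 CPM. *Trh* in controls 4 and 5 did not meet it either, because the 2 lie close together.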

How the results depend on the processing

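The sign of the 6 member differences was the same under every alternative run (*Trh* was removed by the stricter filter of edgeR and has no value there), with ranges of 0.73 to 1.64 for *Dio2*, 0.19 to 0.78 for *Dio3*, -0.34 to -0.20 for *Thra*, -0.24 to -0.01 for *Thrb* and 0.33 to 0.63 for *Slc16a10* (log2 fold change). The fitted value of *Trh* moved from -7.77 to -1.68 without controls 4 and 5, a setting added after seeing the data. It also depends on the default prior count of the edgeR fit. Over all genes 2438 were called and 4103 in DESeq2. The count was 2358 without *Ltf* iCre/+ *Arid1a* f/f uteri 1 and 5, 701 without controls 4 and 5, and 1204 to 2381 on leaving out 1 uterus. Of the pathway genes 9 were called, 18 in DESeq2, 15 without *Ltf* iCre/+ *Arid1a* f/f uteri 1 and 5, 3 without controls 4 and 5, and 3 to 12 on leaving out 1 uterus. Genes not called that turned direction were *Crym* (-0.029 without uterus 2, and -0.029 to 0.389 on leaving out 1 uterus), *Hr* (-0.082 without uterus 1, -0.082 to 0.134 on leaving out 1 uterus, -0.14 without uteri 1 and 5, -0.004 without controls 4 and 5), *Trhr* (0.30 without controls 4 and 5), *Rxra* (0.013 without control 1, 0.027 without uterus 3, and -0.083 to 0.027 on leaving out 1 uterus) and *Nr1d1* (0.24 without control 1), where the uteri are *Ltf* iCre/+ *Arid1a* f/f unless called controls. The cause of these moves was not tested. Replicate numbers are shared between genotypes but did not pair the uteri (correlations of deviations -0.16 to 0.23, and only replicate 5 was closest to its own number). With a replicate block 1704 genes and 8 pathway genes were called, *Marchf6* (adjusted p = 0.0637), *Kat2b* (0.0955), *Rian* (0.0729) and *Mirg* (0.0552) lost their calls, *Dio1* gained one (0.0475), and the member fold changes were 1.23 for *Dio2*, 0.35 for *Dio3*, -0.29 for *Thra*, -0.13 for *Thrb*, 0.50 for *Slc16a10* and -7.09 for *Trh*. Depth limits *Dio3*, *Ucp3*, *Crym* and *Trh*, with few counts per library.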
